A study of Homo sapiens with 6 samples.

Results

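The enzymes of serine synthesis and of the folate one-carbon cycle were followed as 9 genes, chosen by symbol from a list: PHGDH, PSAT1, PSPH, SHMT1, SHMT2, MTHFD1, MTHFD2, MTHFD1L and TYMS. All 9 were found among the 58735 genes of the deposited table, 1 row each. These members and the gene lists used below were chosen with earlier results of these data known. Their counts beside the shares over all genes are therefore descriptions and not tests. The table came from total RNA of U937, an established human myeloid line that the labels give as AML (acute myeloid leukaemia), in 2 groups of 3 libraries. One group is labelled wild type. The other is labelled shENO1, which is taken here to mean knockdown by a hairpin RNA of ENO1, whose product alpha-enolase is an enzyme of glycolysis. No drug, time point or other allele is given for either group. The control carries the label wild type rather than that of a control hairpin, so effects of carrying any hairpin cannot be told apart from loss of ENO1. The labels do not say whether the shENO1 cells were 1 clone or a pool, or whether the replicates are separate cultures. P-values therefore rest on the spread among 3 libraries a group and no more, and that spread may be technical.

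Serine is made from 3-phosphoglycerate, an intermediate of glycolysis, in steps run by PHGDH, PSAT1 and PSPH. The phosphoglycerate mutase PGAM1 and then enolase carry the same intermediate on towards pyruvate. SHMT1 in the cytosol and SHMT2 in mitochondria split serine into glycine and a one-carbon unit held on tetrahydrofolate. MTHFD2 and MTHFD1L process the unit in mitochondria down to formate, MTHFD1 takes formate back up in the cytosol, and the units are spent on purines, on thymidylate (made by TYMS) and on methionine. Dividing leukaemia cells are known to draw on this pathway for nucleotides.

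Several steps of the pathway had more mRNA in the shENO1 cells. PSAT1, PSPH, MTHFD1 and MTHFD1L rose 1.70-fold, 1.68-fold, 1.69-fold and 1.80-fold, and none of the 9 members was called lower by the test given below. PHGDH, at the entry of the pathway, was 1.29-fold higher and did not pass the test. SHMT1 and SHMT2 had ratios of 1.23 and 1.14 between group means, TYMS 1.02 and MTHFD2 0.862, and none of these passed. The test was limma on log2(FPKM + 1) over 12809 genes averaging 1 FPKM or more (fragments scaled to gene length and library size), all 9 members among them, at a Benjamini-Hochberg adjusted p under 0.05. By this rule 4 of 9 members were higher, against 7.86% of all tested genes, and 0 of 9 were lower, against 6.46%. Over all genes this was 1007 higher and 828 lower, and 1259 and 662 when libraries were scaled to nuclear reads. Mitochondrial genes took 3.38% to 5.19% of the reads of wild-type and 5.72% to 7.42% of those of shENO1 libraries, and with nuclear scaling 4 members were higher and 0 lower as well. At an unadjusted p under 0.05, 5 members were higher and 0 lower, against 16.3% and 15.4% of all genes. Limma-voom on reads recovered from the table also called 4 higher and 0 lower, against 10.7% and 7.49%. The shENO1 libraries lay above every wild-type library for 5 members, against 19.6% of all genes, and below them for 1, against 17.9%. The count of 4 fell to 0 without wild-type replicate 1, to 2 (MTHFD1 and PSPH) without wild-type replicate 2, and to 2 (MTHFD1 and PSAT1) without shENO1 replicate 1. It was 3 without shENO1 replicate 2, and 4 without either replicate 3 or without both of them. The share of all genes called higher moved as well. It was 1.16%, 1.7% and 7.16% without wild-type replicates 1, 2 and 3, and 2.23%, 5.22% and 5.62% without shENO1 replicates 1, 2 and 3. Without both replicates 3 it was 12.6%.

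**Figure D1:**
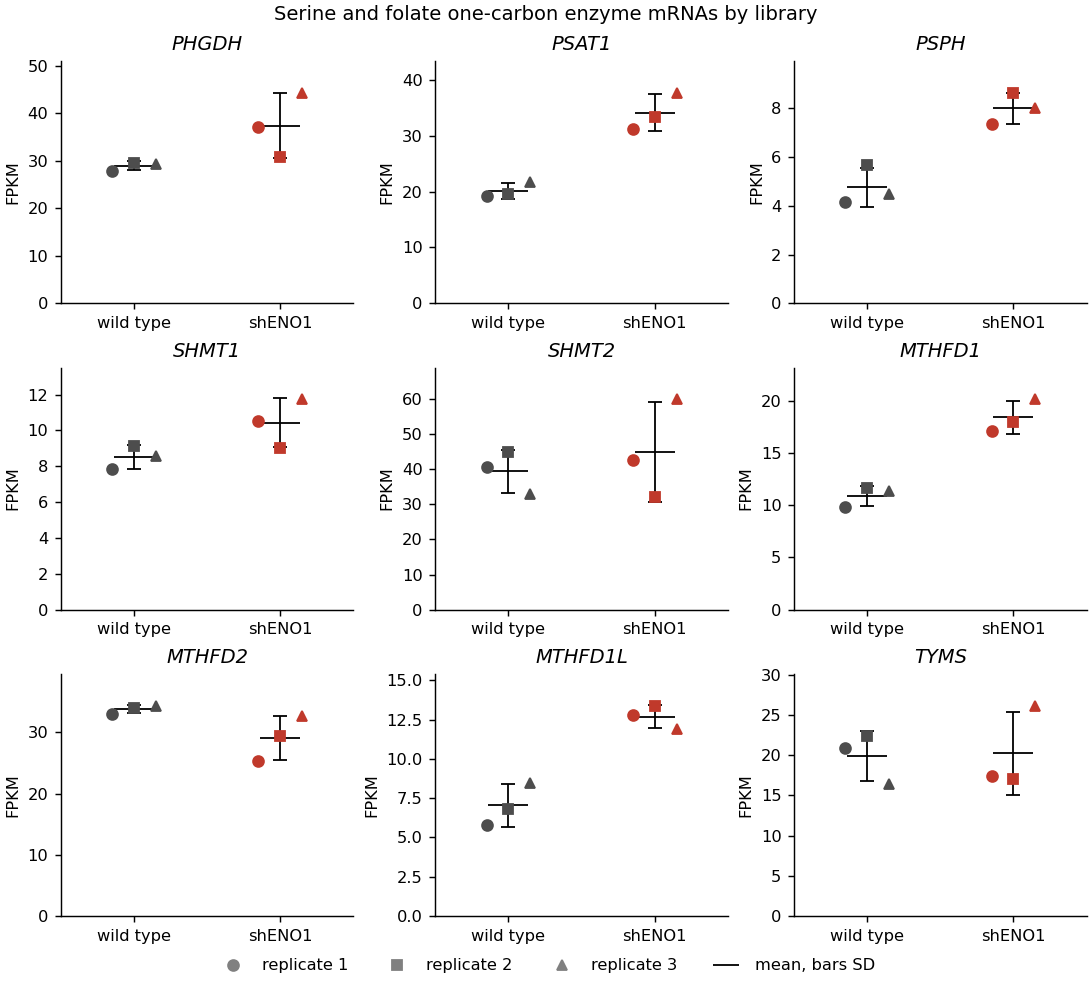
FPKM of the 9 enzyme mRNAs in each library (vertical axes, linear from 0), for wild-type (grey) and shENO1 (red) cells; symbols mark replicate numbers, and the black line and bars give the mean and SD of 3 libraries. The shENO1 libraries lie above all wild-type libraries for PHGDH, PSAT1, PSPH, MTHFD1 and MTHFD1L, below them for MTHFD2, and overlap with them for SHMT1, SHMT2 and TYMS.

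ENO1 itself, which checks the labels, measured 526, 545 and 561 FPKM in wild-type and 91.5, 82.7 and 111 FPKM in shENO1 libraries (limma adjusted p = 0.00129). Each library held 14216739 to 17499636 reads in genes. Member reads per library ranged from 171 for PSPH to 6893 for PHGDH. Of 13 myeloid markers 10 had a mean of at least 1 FPKM, led by ELANE, LYZ and CD4. The exceptions were CD14, CD68 and MPO. The sum of the 13 was 1114 to 1262 FPKM in wild-type and 1525 to 1950 FPKM in shENO1 libraries. Most of that difference lay in ELANE (means of 498 and 789 FPKM) and LYZ (384 and 634 FPKM). CEBPA (68.3 and 97.9 FPKM), FCGR1A (2.11 and 3.72 FPKM), CSF1R, CD14, SPI1 and ITGAM also had higher means in shENO1 cells. CD4 (122 and 113 FPKM), CD33, PTPRC, CD68 and MPO had lower means there. For CD4, CD33, PTPRC and CD68 the groups overlapped. Summed markers of T cells, epithelium and endothelium did not exceed 0.425 FPKM in any library. The erythroid markers HBB, HBA1 and HBA2 were at 0 in all libraries, as were CD3D, CD3E and MS4A1. CD79A, a B cell marker, was at 6.13 to 8.30 FPKM in wild-type and 2.63 to 5.41 FPKM in shENO1 libraries. The 4 fibroblast markers, mostly COL1A1, summed to 1.33 to 1.69 and 0.802 to 1.38 FPKM. The part of these shifts in the results was not tested. Fewer cells of a kind and less RNA per cell cannot be told apart in such bulk samples.

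Wild-type replicate 3 and shENO1 replicate 3 stood apart from the other libraries. They lay at opposite ends of principal component 2 (27.3% of the variance), at -32.2 and 34.7. Deviations trended with gene length most in shENO1 replicate 3 (Spearman rho -0.375 over protein-coding genes, against 0.179 in wild-type replicate 3 and -0.110 to 0.254 in the others). Among the members, shENO1 replicate 3 was the highest library of its group for 7 of 9 and the lowest for 1, MTHFD1L. The summed FPKM of the 9 members came to 169, 184 and 168 for wild-type and to 202, 192 and 253 for shENO1 libraries. All 3 shENO1 sums were above all wild-type sums, with shENO1 replicate 3 the farthest off. The members took 0.0885% to 0.0963% of the reads of wild-type libraries and 0.105% to 0.131% of those of shENO1 libraries.

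PHGDH (ENSG00000092621, chromosome 1, 119648411 to 119744226, plus strand, GRCh38) encodes phosphoglycerate dehydrogenase, which oxidises 3-phosphoglycerate and commits it to serine. It was at 27.9, 29.6 and 29.4 FPKM in wild-type and at 37.1, 30.8 and 44.4 FPKM in shENO1 libraries. The groups did not overlap, but shENO1 replicate 2 lay only just above the wild-type libraries and the shENO1 spread was wide. Mean levels were 28.9 ± 0.916 and 37.4 ± 6.77 FPKM (here and throughout, ± gives the SD of n = 3 libraries). The log2 fold change of 0.34 had a 95% interval of 0.01 to 0.68 before adjustment and a limma adjusted p = 0.147. Over 19 alternative settings its log2 fold change stayed between 0.22 and 0.47 and passed in 0.

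PSAT1 (ENSG00000135069, chromosome 9, 78297143 to 78330093, plus strand) encodes the aminotransferase of the second step, which moves an amino group from glutamate. Its level was 19.1, 19.5 and 21.7 FPKM in wild-type and 31.2, 33.3 and 37.7 FPKM in shENO1 libraries. Every shENO1 library was well above every wild-type library. On the log2 scale PSAT1 rose by 0.73 (SE 0.11, limma adjusted p = 0.0105). Without wild-type replicate 1 or 2 it was 0.70 and 0.71 with an adjusted p = 0.0582 and 0.058, and it passed in the other 4 fits that left out a library (adjusted p 0.0187 to 0.0375).

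PSPH (ENSG00000146733, chromosome 7, 56011051 to 56051604, minus strand) encodes the phosphatase that releases free serine, and was the member with the fewest reads, 171 to 373 per library. It was at 4.15, 5.67 and 4.47 FPKM in wild-type and at 7.35, 8.65 and 8.01 FPKM in shENO1 libraries, again without overlap. PSPH rose by 0.65 on the log2 scale (SE 0.12, adjusted p = 0.0215 by limma), and this was 0.57 without wild-type replicate 1, 0.70 without shENO1 replicate 1 and 0.60 without shENO1 replicate 2 (adjusted p = 0.086, 0.0608 and 0.058). It also missed the threshold with no filter on FPKM (adjusted p = 0.0604). PSPHP1, an unprocessed pseudogene of PSPH on the same chromosome with 261 bases, held 37 to 84 reads per library. Of its words of 50 bases 34.4% were found unchanged in PSPH transcripts, so the split of reads between the copies is uncertain. With all PSPHP1 reads counted for PSPH, the fold was 1.497 in place of 1.68, and the groups still did not overlap.

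**Figure D2:**
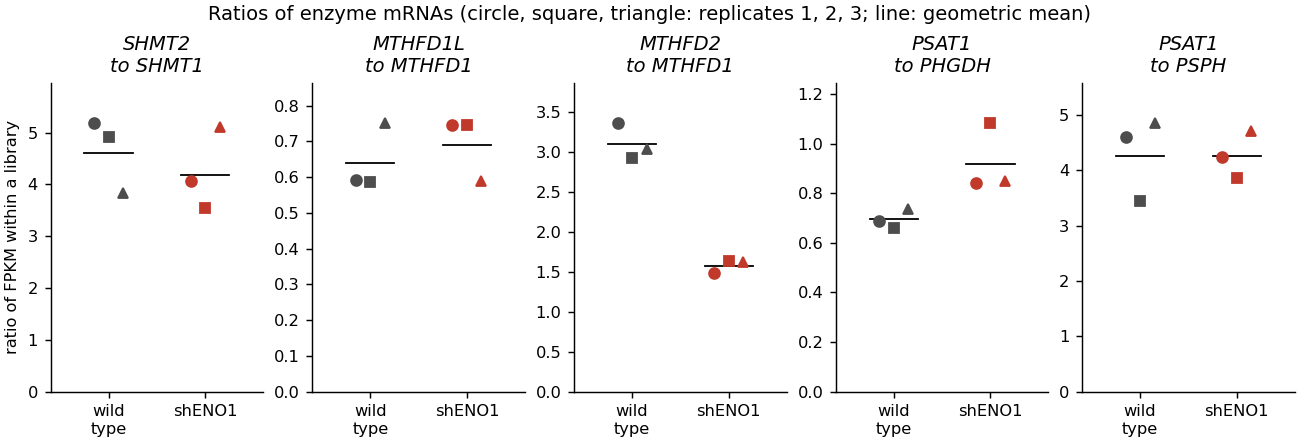
Ratios of FPKM between pairs of enzyme mRNAs within each library (vertical axes, linear from 0), for wild-type (grey) and shENO1 (red) libraries, with the geometric mean of 3 as a line. MTHFD2 to MTHFD1 and PSAT1 to PHGDH are the pairs whose groups do not overlap; MTHFD2 to MTHFD1 lies at 2.92 to 3.36 in wild-type and 1.48 to 1.64 in shENO1 libraries.

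Steps of serine synthesis were also set against each other within each library. The ratio of PSAT1 to PHGDH was 0.687, 0.660 and 0.738 in wild-type and 0.842, 1.08 and 0.851 in shENO1 libraries. The groups did not overlap, and the log2 ratio was higher by 0.40 in shENO1 cells. By exact permutation (two-sided) p was 0.1, which is the floor for 3 libraries against 3, or 0.25 after Benjamini-Hochberg adjustment over the 5 ratios computed. The ratio of PSAT1 to PSPH was 4.61, 3.44 and 4.85 in wild-type and 4.25, 3.86 and 4.71 in shENO1 libraries, with full overlap and a log2 difference of 0.00 (exact permutation p = 1.0).

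Of the hydroxymethyltransferases, which release the one-carbon unit from serine, SHMT2 (ENSG00000182199, chromosome 12, 57229327 to 57234935, plus strand) is the mitochondrial enzyme. It was at 40.6, 44.9 and 32.8 FPKM in wild-type and at 42.7, 32.0 and 59.9 FPKM in shENO1 libraries. The highest and the lowest value both came from the shENO1 group, and the mean hid a spread of 14.1 FPKM (SD) there. The log2 fold change was 0.15 with a 95% interval of -0.41 to 0.71 (limma adjusted p = 0.712). It turned to -0.08 without shENO1 replicate 3 and to -0.20 without both replicates numbered 3. SHMT1 (ENSG00000176974, chromosome 17, 18327860 to 18363563, minus strand), the cytosolic enzyme, was at 7.83, 9.13 and 8.56 FPKM in wild-type and at 10.5, 9.04 and 11.7 FPKM in shENO1 libraries. Only shENO1 replicate 2 fell within the wild-type range, and the log2 fold change of 0.26 (95% interval -0.01 to 0.54) had a limma adjusted p = 0.175. The ratio of SHMT2 to SHMT1 was 5.18, 4.91 and 3.84 in wild-type and 4.06, 3.54 and 5.10 in shENO1 libraries. These ranges overlapped, with a log2 difference of -0.14 (exact permutation p = 0.6).

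MTHFD1 (ENSG00000100714, chromosome 14, 64388031 to 64463457, plus strand) encodes the cytosolic protein with 3 activities, which loads formate onto tetrahydrofolate and converts the product to the forms used for purines and thymidylate. Its level was 9.84, 11.6 and 11.3 FPKM in wild-type and 17.1, 17.9 and 20.2 FPKM in shENO1 libraries, again with a clear gap. MTHFD1 rose by 0.70 on the log2 scale (SE 0.10, adjusted p = 0.0112 by limma). Of the fits without 1 library it missed the threshold in that without wild-type replicate 1 (0.64, adjusted p = 0.058). MTHFD1L (ENSG00000120254, chromosome 6, 150865549 to 151101887, plus strand), the mitochondrial synthetase that sets formate free, was at 5.82, 6.81 and 8.50 FPKM in wild-type and at 12.8, 13.4 and 11.9 FPKM in shENO1 libraries. MTHFD1L rose by 0.78 on the log2 scale (SE 0.13, limma adjusted p = 0.0165). Without wild-type replicates 1 and 2 and shENO1 replicate 1 in turn it was 0.67, 0.77 and 0.77 (adjusted p = 0.0617, 0.0716 and 0.0661). Replicate 3 was the top wild-type library and the bottom shENO1 library, and without both the log2 fold change was 0.95. The ratio of MTHFD1L to MTHFD1 was 0.592, 0.586 and 0.751 in wild-type and 0.746, 0.746 and 0.590 in shENO1 libraries, so the groups overlapped (log2 difference 0.11, exact permutation p = 0.7).

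MTHFD2 (ENSG00000065911, chromosome 2, 74198562 to 74217565, plus strand) encodes the mitochondrial dehydrogenase and cyclohydrolase that acts between SHMT2 and MTHFD1L. Its level was 33.1, 34.0 and 34.4 FPKM in wild-type and 25.4, 29.4 and 32.6 FPKM in shENO1 libraries. All 3 shENO1 libraries were lower, replicate 3 by a small margin, and the log2 fold change of -0.21 (95% interval -0.48 to 0.05) did not pass (limma adjusted p = 0.236). It was -0.12 without shENO1 replicate 1. The ratio of MTHFD2 to MTHFD1 was 3.36, 2.92 and 3.04 in wild-type and 1.48, 1.64 and 1.62 in shENO1 libraries, without overlap. MTHFD1, its denominator, rose by 0.70 on the log2 scale, so this ratio does not by itself show a fall of MTHFD2. The ratio in shENO1 cells was 0.509 of that in wild-type cells (log2 difference -0.98, exact two-sided permutation p = 0.1, the smallest possible here, and 0.25 after adjustment over 5 ratios). It was -0.92 to -1.02 with each library left out in turn.

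TYMS (ENSG00000176890, chromosome 18, 657604 to 673578, plus strand) encodes thymidylate synthase, which uses the one-carbon unit to methylate dUMP. It was at 20.9, 22.4 and 16.4 FPKM in wild-type and at 17.5, 17.0 and 26.2 FPKM in shENO1 libraries. The groups overlapped, and the libraries numbered 3 were at the far end of each group, low in wild-type and high in shENO1 cells. The log2 fold change was 0.01 with a 95% interval of -0.46 to 0.47 (limma adjusted p = 0.983). It was -0.31 without both libraries numbered 3 (adjusted p = 0.0513), a setting added after the data had been seen. ENOSF1 runs through the same locus on the opposite strand and was at 5.37 ± 0.221 and 7.10 ± 0.670 FPKM. TYMSOS, also opposite, was at 1.99 ± 0.463 and 2.55 ± 0.222 FPKM. The strand setting of the counting is not given in the sources used here, so reads of TYMS and of these genes cannot be told apart with certainty. The same holds for SMCR8 beside SHMT1 (6.79 ± 0.871 and 9.12 ± 0.390 FPKM), ZBTB25 beside MTHFD1 (2.61 ± 0.272 and 2.15 ± 0.313 FPKM) and NDUFA4L2 beside SHMT2 (1.41 ± 0.0594 and 2.05 ± 0.311 FPKM).

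**Figure D3:**
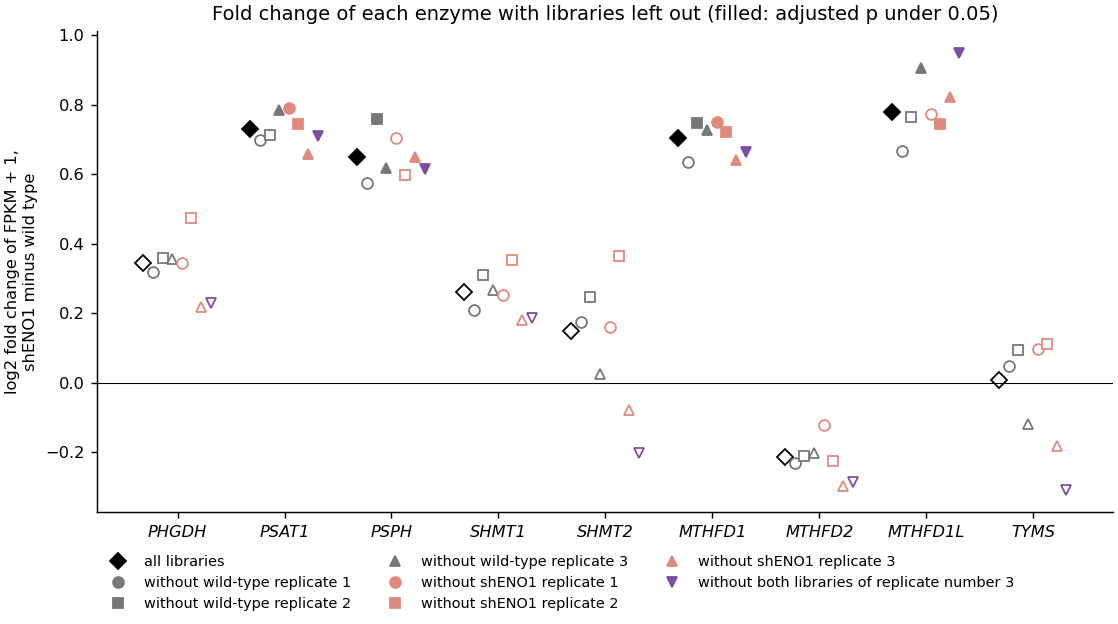
Log2 fold change of FPKM + 1 (vertical axis) of the 9 enzymes in the fit on all libraries (diamonds), without each single library, and without both libraries numbered 3; filled symbols passed at an adjusted p under 0.05. PSAT1, PSPH, MTHFD1 and MTHFD1L stay between 0.57 and 0.95, while SHMT2 and TYMS take both signs.

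The order of the levels among the enzymes depended on the gene length used. The lengths in the table were those of all annotated exons of GENCODE release 29 merged, for all 58735 genes. For PHGDH this length was 9217 bases, 3.57 times that of its principal transcript (2585 bases, annotated as principal by APPRIS). The factor was 2.99 for MTHFD1, 2.95 for SHMT1, 1.91 for SHMT2 and 1.0 for PSAT1. Per kilobase of merged exons, SHMT2 led in wild-type cells at 39.4 ± 6.11 FPKM, ahead of MTHFD2 at 33.8 ± 0.676 FPKM, with overlapping ranges. PHGDH came next and PSPH last at 4.76 ± 0.802 FPKM. Neighbours that overlapped were PSAT1 with TYMS and SHMT1 with MTHFD1L. For a second scale, the same reads of all exons were divided by the length of the principal transcript. This scale is too high for a gene where reads came from exons outside that transcript. Per kilobase of the principal transcript, PHGDH led at 103 ± 3.27, ahead of SHMT2 at 75.2 ± 11.6, MTHFD2 at 36.9 ± 0.739 and MTHFD1 at 32.7 ± 2.85. On this scale MTHFD1 overlapped with TYMS (29.5 ± 4.62) and TYMS with SHMT1 (25.1 ± 1.93). PSAT1, MTHFD1L and PSPH followed, with no overlap between neighbours. In shENO1 cells PHGDH (133 ± 24.1) overlapped with SHMT2 (85.6 ± 26.9). MTHFD1 followed on that scale at 55.1 ± 4.67, with no overlap with PSAT1 (34.1 ± 3.32) below it. Fold changes between the groups are the same with either length.

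**Figure D4:**
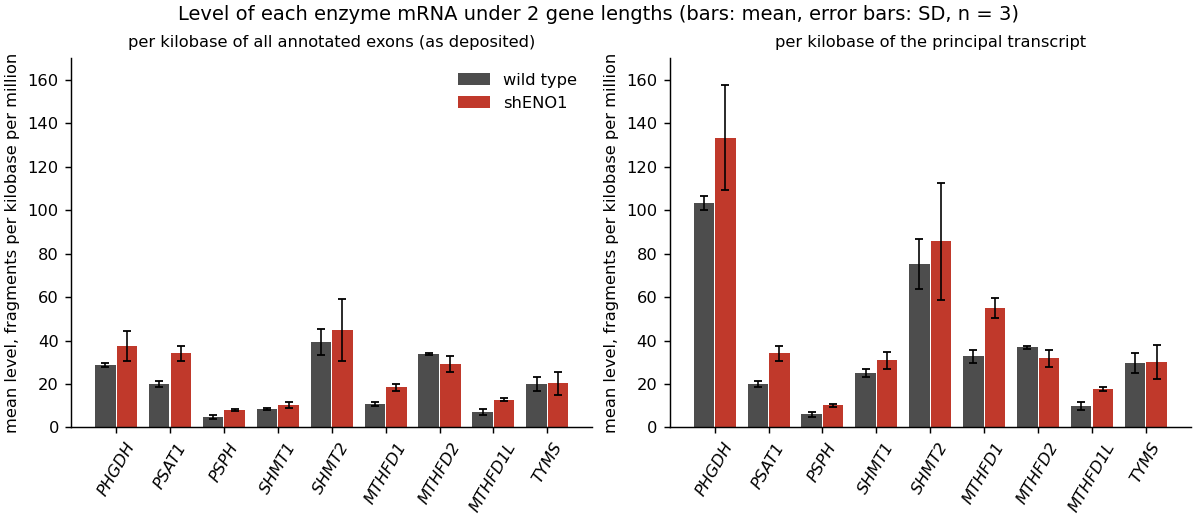
Mean level of the 9 enzyme mRNAs in FPKM (vertical axes), per kilobase of all annotated exons (left) and of the principal transcript (right), in wild-type (grey) and shENO1 (red) cells; error bars are SD of 3 libraries. PHGDH is at 28.9 (wild type) on the left and at 103 on the right, while PSAT1 is the same on both. Both sides use the same reads.

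Promoters of 3 of the 4 higher members are shown, and that of MTHFD2, which was not higher, beside them. RefSeq promoter windows (GRCh38.p14, 250 bases before to 50 after a start) were matched for 7 members, which leaves out PSPH, the other higher member, and SHMT2. They were searched on both strands for the E-box CACGTG, bound by MYC and related factors, for the composite element of ATF4 and C/EBP factors, TGATGNAA, and for the E2F elements TTGGCGC and TTCCCGC. Windows are given below on the strand of the gene, 5′ to 3′, with matches in capitals: PSAT1 (chr9:78296875-78297174, plus strand), MTHFD1 (chr14:64388103-64388402, plus strand), the first of 4 windows of MTHFD1L (chr6:150866236-150866535, plus strand) and MTHFD2 (chr2:74198365-74198664, plus strand).
PSAT1: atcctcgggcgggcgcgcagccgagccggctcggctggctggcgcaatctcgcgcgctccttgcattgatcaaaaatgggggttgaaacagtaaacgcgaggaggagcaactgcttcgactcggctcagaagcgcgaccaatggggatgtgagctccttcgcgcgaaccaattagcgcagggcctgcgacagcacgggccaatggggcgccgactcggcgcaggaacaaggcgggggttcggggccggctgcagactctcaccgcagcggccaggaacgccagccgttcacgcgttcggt
MTHFD1: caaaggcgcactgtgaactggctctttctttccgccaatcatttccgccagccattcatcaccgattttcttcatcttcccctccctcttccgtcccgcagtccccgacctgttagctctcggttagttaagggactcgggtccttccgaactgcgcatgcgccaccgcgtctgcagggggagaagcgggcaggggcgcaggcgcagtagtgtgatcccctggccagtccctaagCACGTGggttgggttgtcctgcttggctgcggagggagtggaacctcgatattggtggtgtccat
MTHFD1L: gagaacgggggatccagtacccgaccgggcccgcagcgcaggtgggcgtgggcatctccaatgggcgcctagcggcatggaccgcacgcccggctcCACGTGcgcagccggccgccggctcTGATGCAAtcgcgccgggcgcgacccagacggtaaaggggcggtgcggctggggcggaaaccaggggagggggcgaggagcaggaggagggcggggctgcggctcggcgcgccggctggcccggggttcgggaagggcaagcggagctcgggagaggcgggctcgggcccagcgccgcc
MTHFD2: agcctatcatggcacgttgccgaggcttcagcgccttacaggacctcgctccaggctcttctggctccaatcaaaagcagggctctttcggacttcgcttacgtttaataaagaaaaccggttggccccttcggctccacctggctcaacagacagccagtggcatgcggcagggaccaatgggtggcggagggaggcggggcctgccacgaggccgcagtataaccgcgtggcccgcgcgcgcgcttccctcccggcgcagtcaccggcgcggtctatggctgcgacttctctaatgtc

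The E-box stood 15 bases before the start of MTHFD1 and 154 bases before this start of MTHFD1L, and was in the windows of 2 of 7 members, against 8.77% of 27305 genes (7.26% of 35116 windows). MTHFD1L also held a composite element, TGATGCAA, 129 bases before this start. That element was in 1 of 7 members and in 4.46% of genes (3.62% of windows). An E2F element was found in the window of TYMS, thus in 1 of 7 members, and in 10.96% of genes (9.23% of windows). PSAT1 and MTHFD2 had none of these letters in the window shown, and neither did PHGDH and SHMT1. A match is a description of the sequence and not a binding site.

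Of the genes of those factors, only MYC and ATF4 are given here. MYC, which encodes a transcription factor known to act on several genes of this pathway, was at 17.9, 17.3 and 23.6 FPKM in wild-type and at 75.6, 73.0 and 58.8 FPKM in shENO1 libraries (log2 fold change 1.77, SE 0.16, limma adjusted p = 0.00445). ATF4, whose protein induces PHGDH, PSAT1, PSPH, SHMT2 and MTHFD2 when amino acids are short, was at 93.6, 105 and 93.7 FPKM in wild-type and at 67.4, 64.8 and 84.6 FPKM in shENO1 libraries. All shENO1 libraries were lower for ATF4. Its log2 fold change of -0.43 had a limma adjusted p = 0.0739 and passed in 6 of 19 alternatives, among them voom on recovered reads (adjusted p = 0.0339) and scaling to the same FPKM total (adjusted p = 0.0300). ATF4 is controlled mainly by translation, which these libraries do not measure.

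In the list of ATF4 and other genes of the integrated stress response, 2 of 22 tested genes were called higher and 2 lower, against 7.86% and 6.46% of all tested genes, with a median log2 fold change of 0.03 against -0.02. At an unadjusted p under 0.05, 4 were higher and 6 lower (16.3% and 15.4% of all genes), and 3 and 3 by voom. SLC7A5, a transporter of large neutral amino acids, rose from 9.84 ± 1.30 to 23.6 ± 1.65 FPKM (limma adjusted p = 0.0056), and MARS, the methionyl-tRNA synthetase, from 12.5 ± 0.577 to 16.2 ± 0.381 FPKM (0.0342). DDIT4, an inhibitor of mTORC1, fell from 57.9 ± 0.475 to 25.3 ± 3.48 FPKM (0.0056). PPP1R15A, which directs a phosphatase to eIF2 alpha, fell from 140 ± 33.5 to 45.6 ± 15.4 FPKM (0.0161). MARS did not pass without any 1 of the 6 libraries, and PPP1R15A not without wild-type replicates 1 and 2 or shENO1 replicate 1 (adjusted p = 0.0711, 0.0655 and 0.0669). Without shENO1 replicate 3, 1 gene was higher and 4 were lower, and without both libraries numbered 3, 4 were higher and 5 lower. ASNS, a further target of ATF4, had a mean of 0.213 FPKM and was not tested.

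Of the other folate genes, 2 of 7 tested were called higher and 0 lower (5 and 0 at an unadjusted p under 0.05, 3 and 0 by voom), with a median of 0.40. The shares over all tested genes were 7.86% and 6.46% (16.3% and 15.4% unadjusted, 10.7% and 7.49% by voom). SLC19A1, the reduced folate carrier, rose from 7.14 ± 0.779 to 13.5 ± 1.81 FPKM (log2 fold change 0.83, limma adjusted p = 0.0111). It did not pass without wild-type replicate 1 (adjusted p = 0.0582) or wild-type replicate 2 (0.0564). The count of 2 was 0 without either of these libraries and 1 without shENO1 replicate 2. The 10 other listed genes, among them MTHFD2L, ALDH1L1, ALDH1L2 and the folate receptors, were under 1 FPKM. The folate hydrolase gene GGH was listed at 0 in all libraries. ADSL, a purine enzyme that dividing cells use, was listed at only 0.347 FPKM, so a low listing in this table is not read as absence.

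**Figure D5:**
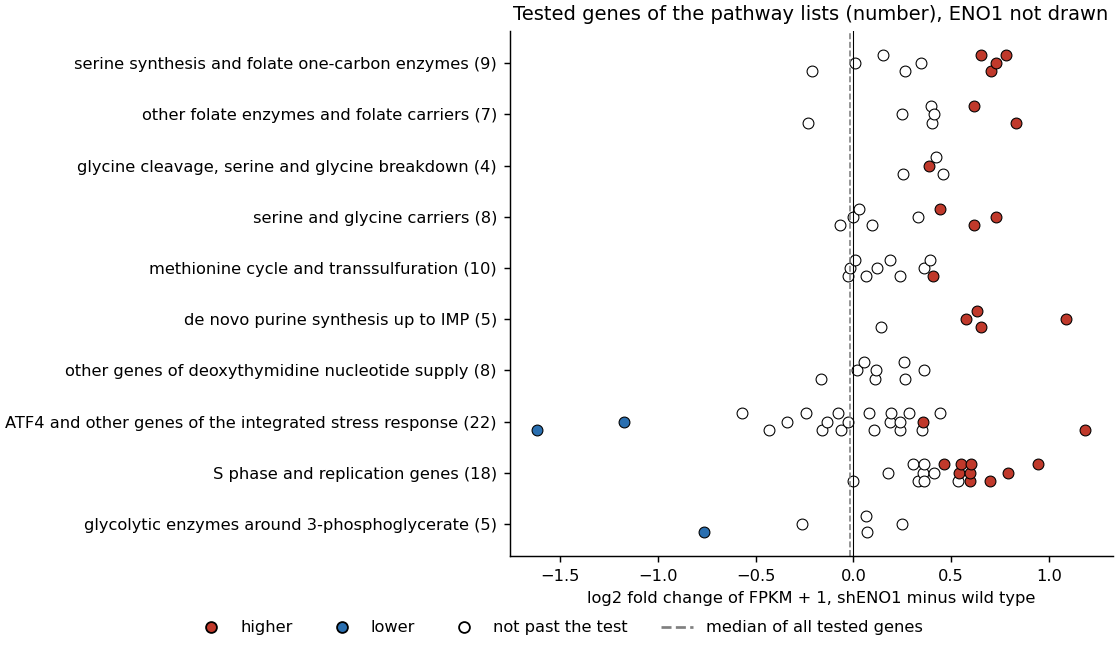
Log2 fold change of FPKM + 1 (horizontal axis) of the tested genes in each pathway list, with red for higher, blue for lower and white for genes not past the test; ENO1 is not drawn. In the list of purine synthesis 4 of 5 genes are red, against 7.86% of all tested genes. In that of deoxythymidine nucleotide supply none of 8 is red, which is near that share.

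Among consumers of one-carbon units, the genes of purine synthesis up to IMP were called higher in 4 of 5 cases and lower in 0 (the same counts at an unadjusted p under 0.05 and by voom), with a median of 0.63. Over all tested genes 7.86% were called higher and 6.46% lower (16.3% and 15.4% unadjusted, 10.7% and 7.49% by voom). PFAS rose from 3.43 ± 0.367 to 8.44 ± 0.980 FPKM (limma adjusted p = 0.00583), PAICS from 19.0 ± 0.718 to 30.4 ± 1.87 FPKM (0.00931), and GART, which uses formyl-tetrahydrofolate, from 16.6 ± 0.744 to 26.2 ± 1.05 FPKM (0.00887). ATIC, the other formyl-tetrahydrofolate user and named after its value was seen, rose from 20.0 ± 1.36 to 30.2 ± 1.44 FPKM (0.0131). PPAT, the first enzyme, was at 7.19 and 8.02 FPKM without passing (0.403). Without wild-type replicate 1 or 2 the count was 1, PFAS. Genes of deoxythymidine nucleotide supply other than TYMS gave 0 calls of 8 tested in either direction by limma, with 1 higher and 0 lower at an unadjusted p under 0.05, 0 and 0 by voom, and a median of 0.11. For a list of 8 genes, 0 calls is near the shares over all tested genes. Without wild-type replicate 3, 1 of the 8 was higher, and also without both libraries numbered 3. In the list of S phase and replication genes, where TYMS is commonly counted too, 9 of 18 were called higher and 0 lower (14 and 0 at an unadjusted p under 0.05 and by voom), with a median of 0.50. The same shares over all tested genes apply here. UNG, a uracil-DNA glycosylase, rose 2.01-fold, POLA1, of DNA polymerase alpha, 1.80-fold and MCM2, of the replicative helicase, 1.65-fold (limma adjusted p = 0.0102, 0.00771 and 0.0183). The count of 9 was 1, 2 and 2 without wild-type replicates 1 and 2 and shENO1 replicate 1.

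Of 8 tested serine and glycine carriers 3 were called higher and 0 lower (4 and 0 at an unadjusted p under 0.05, 3 and 0 by voom), with a median of 0.21. All tested genes gave 7.86% and 6.46% (16.3% and 15.4% unadjusted, 10.7% and 7.49% by voom), for this list and the next ones. SLC1A5, a carrier of glutamine and other neutral amino acids, rose from 40.9 ± 2.17 to 68.5 ± 7.13 FPKM, SLC1A4, a carrier of serine and alanine, from 17.8 ± 2.73 to 27.6 ± 0.941 FPKM and SLC38A1 from 3.12 ± 0.279 to 4.59 ± 0.0201 FPKM (limma adjusted p = 0.0121, 0.023 and 0.0275). SFXN1, which brings serine into mitochondria, was at 14.9 FPKM in both groups. The count of 3 was 0 without wild-type replicate 1, wild-type replicate 2 or shENO1 replicate 1, 1 without shENO1 replicate 2 and 2 without shENO1 replicate 3. In the list of glycine cleavage and of serine and glycine breakdown, 1 of 4 tested genes was called higher and 0 lower (2 and 0 unadjusted, 1 and 0 by voom). This was DLD, a lipoamide dehydrogenase shared with the pyruvate complex, from 13.0 ± 0.199 to 17.3 ± 1.40 FPKM (limma adjusted p = 0.0371), which did not pass without any 1 of the 6 libraries. In the methionine cycle 1 of 10 was called higher and 0 lower (4 and 0 unadjusted, 1 and 0 by voom), which is near the share over all tested genes. This was MTR, the methionine synthase that takes a methyl group from folate, from 5.92 ± 0.348 to 8.20 ± 0.958 FPKM. MTR lay at the threshold (limma adjusted p = 0.0498). It passed in 5 of 19 alternatives, and of the fits without 1 library only in that without shENO1 replicate 3 (adjusted p = 0.0344).

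Among the glycolytic enzymes around 3-phosphoglycerate, ENO1 and ENO2 were called lower and 0 of 6 higher (0 also at an unadjusted p under 0.05 and by voom). The shares over all tested genes were 6.46% lower and 7.86% higher. ENO2, the other enolase tested, fell from 7.82 ± 1.69 to 4.14 ± 0.296 FPKM (limma adjusted p = 0.0252). It did not pass without wild-type replicate 1 or 2 or any 1 of the shENO1 libraries (adjusted p 0.0513 to 0.0950), and without both libraries numbered 3 the list had 3 lower genes. PGK1, which makes 3-phosphoglycerate, was at 89.9 ± 1.33 and 94.6 ± 10.6 FPKM (limma adjusted p = 0.721). PGAM1, which uses it beside PHGDH, was at 131 ± 9.94 and 156 ± 24.6 FPKM (0.284).

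The mean profile of the 9 members over the 6 libraries, as centred log2(FPKM + 1), was -0.26, -0.11 and -0.20 in wild-type and 0.11, 0.09 and 0.37 in shENO1 libraries. SHMT1 and PHGDH lay nearest to it, at root mean square distances of 0.08 each, and MTHFD2 the farthest, at 0.31. Of 7320 other genes averaging 5 FPKM or more, those with the smallest distance were GLB1 (0.030), PARP1 (0.036), SF3A3 (0.039), BFAR (0.040) and RPE (0.041). None of these 5 passed the test between groups (limma adjusted p 0.0503 to 0.0777).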

How the data were processed

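Total RNA of 3 wild-type and 3 shENO1 U937 samples was sequenced; per the labels' protocols, an Illumina TruSeq kit served for the libraries. The authors deposited 1 table of FPKM values; STAR, Cufflinks and Cuffnorm and the build hg38 (GRCh38) are named in the submitters' processing notes, while their versions, parameters and the strand setting are not given in the sources used here. Identifiers, coordinates and gene lengths matched GENCODE release 29. Multiplied by gene length and divided by the value of 1 read in that library, 100% of FPKM values came out as whole numbers of reads (tolerance 0.001), so reads per gene could be recovered.

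Groups came from the treatment labels. The test used log2(FPKM + 1) of genes averaging 1 FPKM or more, in limma 3.58.1 (R 4.3.3), with a mean-variance trend and Benjamini-Hochberg adjustment, and this fit gives each adjusted p unless another is named. Adding 1 understates log2 changes of low genes; folds are ratios of mean FPKM. Ratios within a library were compared by exact permutation. The scripts were tested on simulated data. The genes named are the 9 members, ENO1, MYC, ATF4, up to 3 genes called in each direction per list with the largest change, the 5 nearest profiles, and loci overlapping or copied from a member. Members and lists were chosen with earlier results of these data known. Alternatives covered pseudocount, filter, scaling, test, threshold, length trend, replicate block and left-out libraries. Figures were drawn with matplotlib 3.10.9. Some results within these lists are not reported here.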

Additional observations from a re-analysis of the deposited data

How the results depend on the processing

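Of the 9 enzymes, 4 were called higher. The count was 3 with no filter, 0 at an adjusted p under 0.01, 0 to 4 with each library left out and 4 without both libraries numbered 3, and none was called lower under the 19 alternatives. In the pathway lists, ENO1 aside, 22 genes were higher and 3 lower. These counts were 14 and 1 with no filter, 5 and 1 at an adjusted p under 0.01, 3 to 20 and 1 to 4 with each library left out, and 28 and 8 without both libraries numbered 3. Over all 12809 tested genes, 1007 were higher (7.86%) and 828 lower (6.46%). With no filter the counts were 445 (1.41%) and 381 (1.21%) of 31500 genes. At an adjusted p under 0.01 they were 177 (1.38%) and 126 (0.984%). With each library left out they were 148 to 917 (1.16% to 7.16%) and 132 to 775 (1.04% to 6.06%). Without both libraries numbered 3 they were 1637 (12.6%) and 2041 (15.8%). SHMT2 had a log2 fold change of -0.079 to 0.36 with each library left out and -0.20 without both libraries numbered 3. For TYMS it was -0.028 after scaling to 1 FPKM total, -0.029 with the length trend removed, -0.18 to 0.11 with each library left out and -0.31 without both libraries numbered 3. The log2 difference in the ratio of PSAT1 to PSPH was -0.15 to 0.10 with each library left out. The causes were not tested. Libraries showed no likeness by replicate number: deviations of same-numbered libraries correlated at -0.08, -0.33 and -0.46, and no library correlated best with its own number. The deviations were taken within groups of 3, and both libraries numbered 3 stood apart. These correlations therefore cannot show whether same-numbered libraries were prepared together. With the replicate number as a block in limma, 0 members were higher (4 at an unadjusted p under 0.05), 0 list genes were higher and 0 lower, 0 of all 12809 genes were higher and 1 lower, and ENO1 had a log2 fold change of -2.51 with an adjusted p = 0.0713. Depth was lowest for PSPH, with 171 to 373 reads per library.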
